A study of Mus musculus with 2 samples.

Results

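The miR-26 family of the mouse consists of 3 microRNA (miRNA) genes, Mir26a-1, Mir26a-2 and Mir26b, and its members were chosen by name from the 2202 miRNA genes counted in this series. Small RNAs under 30 bases were sequenced from hippocampus tissue of female B6CASTF1/J mice aged 2 months, an F1 hybrid of a C57BL/6 and a castaneus-derived strain, with no treatment or other group. The labels name 1 group of 2 libraries, biological replicates 1 and 2, each with a tissue record of its own and with a donor record in common. They do not say which hippocampal layer was taken or whether the replicates came from different animals, so part of the spread between them may be technical. Replicate 1 held 4517648 counts on the sense strand of miRNA genes and replicate 2 held 5979247.

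A miRNA gene is transcribed as a hairpin that is cut into a short duplex, and the 2 strands of that duplex are called the 5p and the 3p arm. The arm loaded into an Argonaute protein pairs with messenger RNAs mainly through its seed, bases 2 to 8, and represses them. The hosts of the miR-26 genes encode CTD small phosphatases, which remove phosphate from the tail of RNA polymerase II and act with the repressor REST to keep neuronal genes silent outside mature neurons. The miR-26 miRNAs are known to repress transcripts of these phosphatases, so host and miRNA form a feedback during neurogenesis, and the histone methyltransferase Ezh2 is a further known target.

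The arms of the family are shown with the seed in capitals, from RefSeq on build GRCm38.p6, 5′ to 3′, because the seed groups them and the rest of the arm decides which gene a read can be given to.
miR-26a-5p, made by both Mir26a-1 and Mir26a-2: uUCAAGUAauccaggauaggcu
miR-26b-5p, made by Mir26b: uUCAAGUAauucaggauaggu
miR-26a-1-3p: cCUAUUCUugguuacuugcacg
miR-26a-2-3p: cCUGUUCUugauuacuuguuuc
miR-26b-3p: cCUGUUCUccauuacuuggcuc

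All 3 genes carried the same 5p seed, UCAAGUA. No other mature sequence carried it among the 1036 counted genes that were matched to RefSeq, the only ones searched. Over their 21 common positions, counted from 1 at the 5′ end of miR-26a-5p, the 5p arms of miR-26a and miR-26b differed by C11U and C21U, and miR-26a-5p is 1 base longer. The 3p arms differed more. The 3p arms of Mir26a-1 and Mir26a-2 matched at 16 of 22 bases, with A4G within the seed, whereas Mir26a-2 and Mir26b matched at 18 of 22 and shared the 3p seed CUGUUCU. Mir6932 and Mir7039 also make a 3p arm with that seed, and they had 0 and 1 counts, and 0 and 0 counts, in replicates 1 and 2.

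The whole hairpins show how far the copies are identical. Capitals mark the longest stretch that a hairpin shares with another member.
Mir26a-1, chr9:119031796-119031885, plus strand: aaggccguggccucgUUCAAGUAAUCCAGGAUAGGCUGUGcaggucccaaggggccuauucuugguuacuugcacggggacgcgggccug
Mir26a-2, chr10:126995530-126995613, plus strand: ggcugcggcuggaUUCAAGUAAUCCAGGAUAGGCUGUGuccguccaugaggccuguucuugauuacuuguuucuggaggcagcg
Mir26b, chr1:74394310-74394394, plus strand: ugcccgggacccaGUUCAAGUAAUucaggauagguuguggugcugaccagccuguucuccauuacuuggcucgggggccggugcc

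The miR-26a hairpins shared a stretch of 25 bases, from base 16 to 40 of Mir26a-1 and from base 14 to 38 of Mir26a-2, which begins at the first base of miR-26a-5p and holds all of it. A read that starts there fits both genes equally unless it is at least 26 bases long. At base 26 of such a read Mir26a-1 has C and Mir26a-2 has U, and 1 base before the arm Mir26a-1 has G and Mir26a-2 has A. Of 12 read windows tried per arm (20, 22, 24 or 26 bases long, starting at the first base of the arm, 1 base before it or 1 base after it), 6 of the 5p windows of each miR-26a gene also lay in another annotated hairpin. None of the 12 windows did for the 3p arm of any of the 3 genes or for the 5p arm of Mir26b. Mir26b shared no more than 11 bases with Mir26a-1 and 10 with Mir26a-2.

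**Figure D1:**
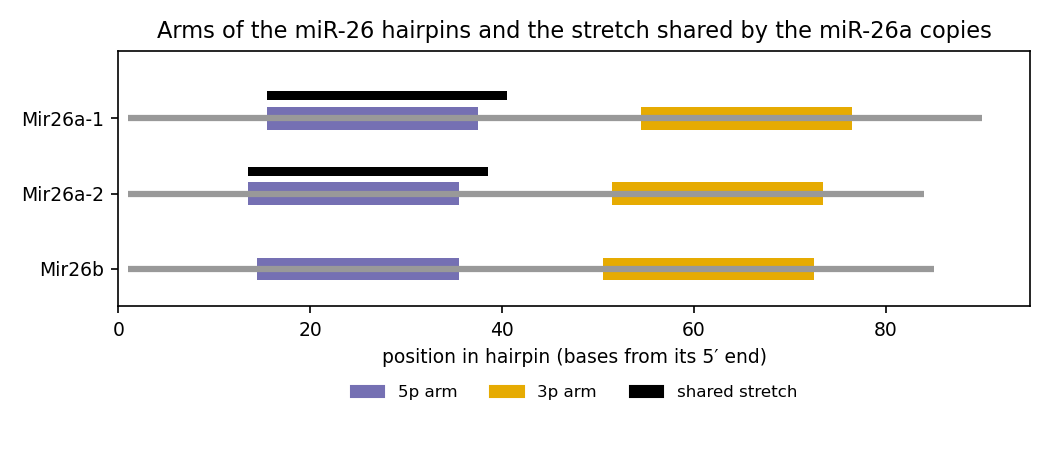
Position of the 5p and 3p arms in the 3 hairpins, in bases from the 5′ end, with a black bar over the 25 bases that Mir26a-1 and Mir26a-2 have in common. The bar covers the whole 5p arm of both miR-26a genes and none of their 3p arms.

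This bears on every count below, since the deposited tables give reads that map to several places to no gene. Such multimapping reads were 45.9% of the reads of replicate 1 and 48.4% of those of replicate 2. The counts of Mir26a-1 and Mir26a-2 therefore leave out ordinary miR-26a-5p reads and are no measure of how much miR-26a the tissue held, whereas Mir26b has no such overlap with an annotated hairpin. The counts are per gene and do not separate the arms, and whether reads from the castaneus-derived chromosome were lost or moved between copies was not tested.

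Each member lay within its host on the same strand, the plus strand. Mir26a-1 (ENSMUSG00000065513.1, 90 bases) lay in intron 5 of the 8-exon transcript of Ctdspl (chromosome 9, 118926453 to 119043998), 105343 bases after the transcript start. That intron is 3283 bases long, and the hairpin stood 1543 bases after the upstream exon and 1650 before the next. Mir26a-2 (ENSMUSG00000065430.1, 84 bases) also lay in intron 5 of an 8-exon transcript, that of Ctdsp2 (chromosome 10, 126978717 to 126999975), 1621 bases after one exon and 241 before the next in an intron of 1946 bases. A pair of shorter Ctdsp2 transcripts is annotated to start at position 126995613, the last base of this hairpin, so 1 base of it lies in their first exon. Mir26b (ENSMUSG00000065468.1, 85 bases) lay in intron 4 of the 7-exon transcript of Ctdsp1 (chromosome 1, 74391509 to 74397285), an intron of only 564 bases, with 234 bases on one side and 245 on the other. The members thus lie in introns near the middle or later part of their hosts.

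**Figure D2:**
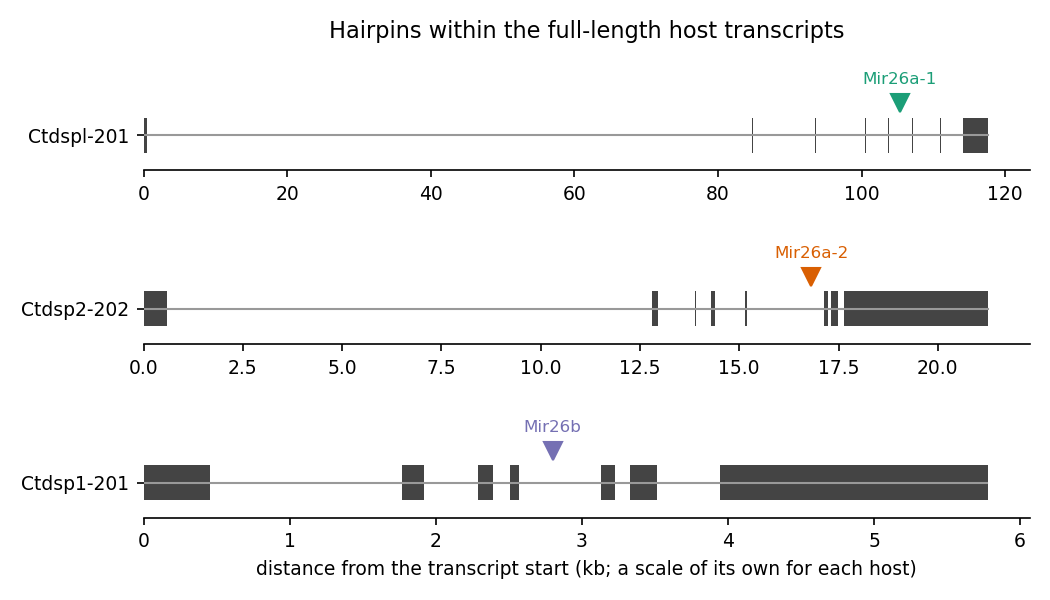
Exons (dark boxes) and introns (lines) of the full-length host transcripts in kb from the transcript start, on a scale of its own for each host, with a triangle at the hairpin. Mir26a-1 and Mir26a-2 stand in intron 5 and Mir26b in intron 4.

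Within 50000 bases no other counted miRNA gene lay near Mir26a-1 or Mir26b. Near Mir26a-2 there was 1, Mir546, at a distance of 2826 bases on the same strand. Mir546 (126998440 to 126998560) also lies within Ctdsp2, and it had 0 counts in both libraries.

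Mir26b supplied nearly all counts of the family. Its counts were 33770 in the first replicate and 52918 in the second. They came to 7475 counts per 1000000 sense counts on miRNA genes (CPM) in replicate 1 (95% Wilson interval 7396 to 7555) and 8850 CPM in replicate 2 (8776 to 8926). Its level of 8163 ± 972.4 CPM (SD, n = 2), or 0.816% ± 0.0972 of the counts, was the 26th highest mean among the tested genes. By replicate it ranked 31 and 22 among all counted genes, and 33 and 23 when the level was divided by hairpin length. The tissue is a mixture of cells, so the share of cells with the miRNA and the amount per cell cannot be told apart.

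Mir26a-2 differed between the libraries more than any other gene tested. It had 65 counts in replicate 1, or 14.4 CPM (95% Wilson interval 11.3 to 18.3), and 3497 in replicate 2, or 584.9 CPM (565.8 to 604.6). It ranked 293 in one library and 125 in the other, and its mean of 299.6 ± 403.4 CPM (SD, n = 2) describes neither.

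Mir26a-1 was low in both libraries. It had 26 counts in replicate 1, or 5.76 CPM (95% Wilson interval 3.93 to 8.43), and 61 in replicate 2, or 10.2 CPM (7.94 to 13.1). These lie above the 0.664 and 0.502 CPM that a count of 0 allows (3 counts of each library). The mean was 7.98 ± 3.14 CPM (SD, n = 2). None of the 3 genes had a count on the antisense strand, and their counts were the same in the column without regard to strand. Intervals and floors cover counting error only, not the spread between libraries. PCR copies of a molecule are counted as separate reads, so the intervals can be too narrow even for counting error.

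**Figure D3:**
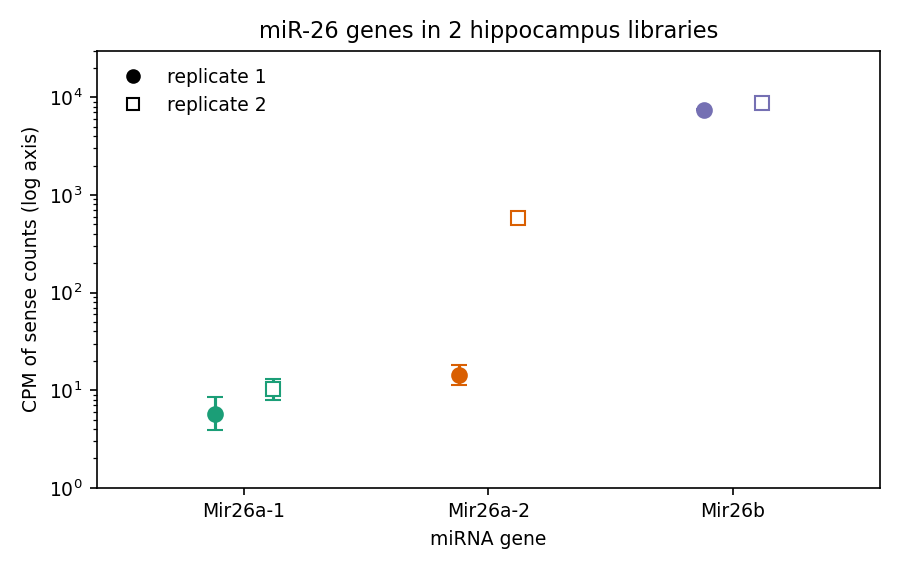
CPM of the 3 genes on a log axis in replicate 1 (filled circles) and replicate 2 (open squares), with 95% Wilson intervals of the counts. Mir26b is high and close together in the 2 libraries, Mir26a-1 is low in both, and Mir26a-2 stands at 14.4 CPM in one library and 584.9 CPM in the other.

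The order Mir26b, Mir26a-2, Mir26a-1 held in each library. Per 100 bases of hairpin the levels in replicate 1 were 8794, 17.1 and 6.39 CPM, and in replicate 2 they were 10412, 696.3 and 11.3 CPM. In replicate 1 Mir26a-2 had 2.50 times the counts of Mir26a-1 (95% exact interval 1.56 to 4.11), and in replicate 2 it had 57.3 times (44.5 to 75.1). The gap between the miR-26a copies was thus beyond counting error in both libraries, but the mean level of Mir26a-2 was not above that of Mir26a-1 by more than its SD. Mir26b had 519.5 times the counts of Mir26a-2 in replicate 1 (407.5 to 673.3) and 15.1 times in replicate 2 (14.6 to 15.7).

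The family as a whole took 0.750% of the counts in replicate 1, with a 95% Wilson interval from 0.742 to 0.758, and 0.945% in replicate 2, from 0.937 to 0.952. The mean was 0.847% ± 0.138 (SD, n = 2). Mir26b made up 99.7% of the family's counts in replicate 1 (99.67 to 99.78) and 93.7% in replicate 2 (93.5 to 93.9). The share of Mir26a-2 was 0.192% (0.151 to 0.245) and 6.19% (5.996 to 6.394), and that of Mir26a-1 was 0.0768% and 0.108%. Because miR-26a-5p reads that start at the first base of the arm and have up to 25 bases fit both copies, these shares hold among reads that map to 1 place and do not give the balance of miR-26a and miR-26b.

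The replicates were then compared, with the ratio of replicate 2 to replicate 1 given on the scale log2(CPM + 0.5). Each gene with at least 10 counts in both libraries was tested against all other miRNA counts with Fisher's exact test, two-sided and with Benjamini-Hochberg adjustment. This compares the reads of 2 libraries of the same group and no condition. All 3 members passed the threshold of 0.05 as higher in replicate 2, where 56.9% of the 420 tested genes differed in either direction and 27.1% were higher. A call alone was thus common among the genes tested, but how common depended on level. The share differing in either direction was taken among tested genes within 1 log2 unit of each member's mean log2 level. It was 96.6% of 29 genes for Mir26b, 70.8% of 65 for Mir26a-2 and 22.7% of 88 for Mir26a-1.

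The sizes of the 3 differences were far apart. Mir26b had a log2 ratio of 0.24 (95% exact binomial interval 0.22 to 0.26), a fold of 1.18, and an adjusted p of 2.1e-131 by Fisher's exact test. Of the 420 genes, 238 had a larger absolute ratio, and the median fold in either direction was 1.23. Its coefficient of variation of 11.9% lay under the 31.2% that edgeR's common dispersion gave for the spread of all tested genes between these libraries. That dispersion pools genes of all levels. The difference in Mir26b was thus past counting error and smaller than that of most tested genes. At its own level it was ordinary, since 15 of the 29 tested genes within 1 log2 unit of its mean log2 level had a larger absolute ratio.

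Mir26a-1 had a log2 ratio of 0.77 (0.14 to 1.55), a fold of 1.71, and an adjusted p of 0.024 by Fisher's exact test. With 26 and 61 counts the interval is wide, and 70 tested genes had a larger absolute ratio. When no gene was left out for low counts, its adjusted p was 0.11, and over all alternatives tried it ranged from 0.0066 to 0.11.

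Mir26a-2 had a log2 ratio of 5.30 (4.99 to 5.72), a fold of 39.3, and an adjusted p below 1e-300 by Fisher's exact test. No tested gene had a larger absolute ratio. The next in the same direction were Mir3083 at 2.48, Mir674 at 1.95 and Mir3069 at 1.94, and 9.76% of the 420 genes differed 2-fold or more. Among the 65 tested genes whose mean log2 level lay within 1 of its own, a level it had in neither library, the ratios ran from -2.53 to 1.53. The value sets 1 library against 1 library, and which arm or read length supplied the 3497 counts is not in the tables.

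**Figure D4:**
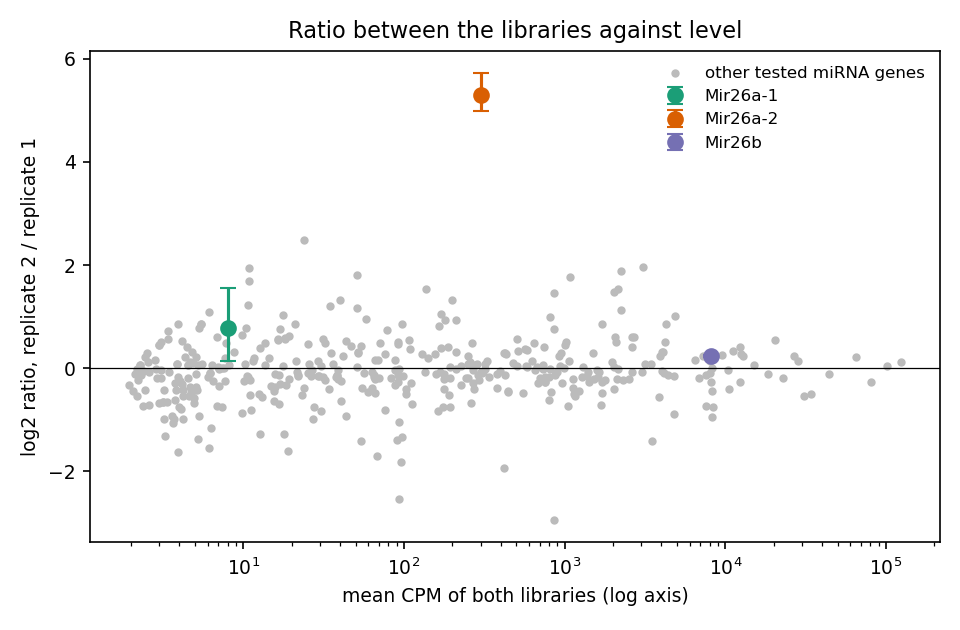
Log2 ratio of replicate 2 to replicate 1 against the mean CPM (log axis) for the 420 tested miRNA genes, with the miR-26 genes in colour and 95% exact intervals of their count ratios. Mir26a-2 stands alone at 5.30, while Mir26a-1 at 0.77 and Mir26b at 0.24 lie within the cloud of the other genes.

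Genes nearest to each member were named by level and by ratio. With 2 libraries a pattern is only a level and a ratio, so likeness is a description. Likeness in ratio was sought among the 195 tested genes with a mean of 100 CPM or more, a limit that Mir26a-1 itself does not reach, and genes under it can lie nearer, as Mir3083 does to Mir26a-2. In mean log2 level Mir652 (8200 CPM), Mir382 (8073 CPM) and Mir23a (8329 CPM) were closest to Mir26b, and all 3 had lower levels in replicate 2, with log2 ratios of -0.43, -0.09 and -0.75. In ratio and within that limit, Mir99a, Mirlet7a-1 and Mir378a, at 0.24 each, were nearest to Mir26b. Nearest to Mir26a-1 in level were Mir3085, Mir6954 and Mir547, none of which passed the test, and in ratio within the limit Mir341 (0.76), Mir16-1 (0.82) and Mir379 (0.85). For Mir26a-2 the genes nearest in mean log2 level were Mir325 (97.0 CPM), Mir449a (92.6 CPM) and Mir3059 (91.2 CPM). That level lies between its levels in the 2 libraries, and Mir26a-2 had it in neither. Their log2 ratios were 0.86, -0.01 and -0.13. The 3 nearest in ratio within the limit, Mir674, Mir21a (1.89) and Mir1839 (1.78), were still 3.34 to 3.52 log2 units away.

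Other pairs of genes with an identical mature sequence are subject to the limit of Mir26a-1 and Mir26a-2 for the reads of that sequence. In the RefSeq table, which matched 1036 of the counted genes, 20 other pairs had at least 10 counts in both libraries in each copy. Mirlet7c-2 stood in a pair with Mirlet7c-1 through let-7c-5p, and in another with Mirlet7a-1 through let-7a-1-3p only. Mirlet7a-1 and Mirlet7a-2, with log2 ratios of 0.24 and -0.68, did not come out as a pair, although both had enough counts. The share of the more abundant gene in its pair was 71.4% and 98.3% for Mir26a-2 in replicates 1 and 2, a difference of 26.9 percentage points. The median difference over the 20 other pairs was 2.17 points. The widest among these was that of Mir24-2, whose share of the Mir24-1 and Mir24-2 counts was 74.5% and 48.0%, a difference of 26.5 points. On the log2 scale the ratios of the miR-26a copies lay 4.52 apart, against 1.64 for the miR-24 copies, 1.28 for the miR-135a copies and a median of 0.22 over the 20 pairs. The copies of miR-219a, miR-181b, miR-92a and miR-218, by contrast, kept their shares to within 0.326 points. Those shares were 91.5% or more, where points leave little room. On the log2 scale the ratios of these copies lay 0.05 to 0.10 apart.

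**Figure D5:**
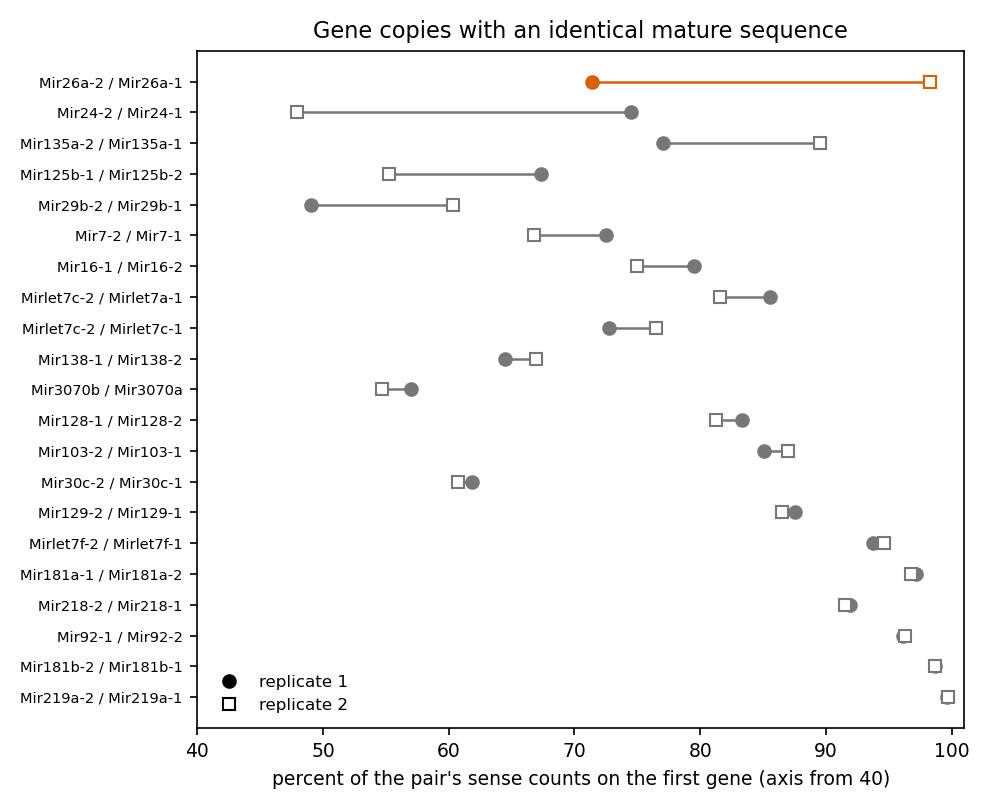
Percent of a pair's sense counts that fell on the first gene named, in replicate 1 (filled circles) and replicate 2 (open squares), for 21 pairs of genes with an identical mature sequence; the axis starts at 40. The pair of Mir26a-2 and Mir26a-1 moved by 26.9 percentage points and that of Mir24-2 and Mir24-1 by 26.5, while most pairs moved by few points.

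The other miRNAs of the REST pathway were listed as the miR-124 genes and the miR-9 genes, which are repressed by REST and in turn act on its partners, and Mir132 and Mir212, which are transcribed together. Of these 8 genes 4 could be tested, 3 had the higher level in replicate 2 and 1 in replicate 1, each past the threshold that 56.9% of all tested genes passed. Their median log2 ratio was 0.53, beside -0.07 over all 420 genes. Mir132 stood at 16627 and 24242 CPM, a log2 ratio of 0.54, and was thus above Mir26b in both libraries. Mir212 stood at 642.4 and 457.9 CPM, a log2 ratio of -0.49, and so moved the other way from its neighbour and from the miR-26 genes. Mir9-3 (75.9 and 108.7 CPM) and Mir9-1 (4.87 and 16.9 CPM) were higher in replicate 2, at 0.51 and 1.70. Mir9-2 and the 3 miR-124 genes had at most 13 counts in a library. The miR-124 genes share 32 identical bases with a copy and the miR-9 genes 26 to 33, so their counts are limited as those of miR-26a are. Host messenger RNAs, REST and the targets of miR-26 were not measured in these libraries.

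Markers of the labelled tissue were counted in both libraries. The 10 neuron genes held 4.26% and 4.78% of the counts in replicates 1 and 2, with the miR-124 genes near 0. Without Mir132 the other 9 held 2.59% and 2.36%, so the higher sum in replicate 2 rests on Mir132. The oligodendrocyte genes held 0.653% and 0.697%, with Mir219a-2 higher in replicate 2 (log2 ratio 0.41) and Mir338 lower (-0.10), both past the threshold. The endothelial and mural genes held 1.89% and 2.20%. The microglial and leukocyte genes held 0.110% and 0.119%, mostly on Mir150 (1009 and 1115 CPM). Mir142 (71.1 and 61.2 CPM) and Mir223 (18.8 and 15.1 CPM) were lower in replicate 2 and did not pass the threshold. The choroid plexus and ependyma genes held 0.0935% and 0.124%, mostly on Mir204, while Mir449a stood at 93.0 and 92.3 CPM. The red cell genes held 0.00733% and 0.0121%, and the genes of other organs 0.0366% and 0.0333%. Among the genes of other organs Mir206 was lower in replicate 2 (79.0 and 29.4 CPM) and Mir375 higher (245.0 and 267.6 CPM), both past the threshold. Mir122 did not pass it. Every marker gene but Mir124a-2 and the muscle gene Mir1a-2, each with no count in replicate 2, had a count in both libraries. The largest absolute log2 ratio of a tested marker gene was the 1.70 of Mir9-1, and the part of cell makeup in the miR-26 ratios was not tested.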

How the data were processed

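The authors deposited raw read counts per miRNA gene, 1 table per library, on mm10 with annotation GENCODE M21, as the notes deposited beside them state. The aligner, counter and adapter trimming used were not given in the sources used here. The tables have no header. From the values, their 3 columns were read as unstranded, sense and antisense counts, and the sense column was used.

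Lines that name no gene entered neither totals nor tests. They held 11.8% and 11.2% unmapped, 45.9% and 48.4% multimapping and 3.60% and 3.69% unannotated reads in replicates 1 and 2. Replicate 1 had 11666435 reads and replicate 2 had 16280072. All 2202 identifiers were found in GENCODE M21, and the 3 RefSeq hairpins of the members equal the GENCODE ones. Identical stretches were searched among annotated hairpins on both strands, not in the genome.

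CPM, Wilson and exact binomial intervals, Fisher's exact tests and Benjamini-Hochberg adjustment were computed in Python 3.11.15 with scipy 1.17.1. TMM factors and the dispersion came from edgeR 4.0.16, with an intercept-only design, and size factors from DESeq2 1.42.0. With 1 group edgeR's quasi-likelihood test has no contrast. The test was checked on simulated data with counting error only, which lack the further spread between these libraries. Named genes are the members, the 3 tested genes nearest to each in mean log2(CPM + 0.5), the 3 nearest in log2 ratio among those at 100 CPM or more, genes sharing a member's seed, the REST pathway and marker lists, and pairs of copies. Mir546, Mir3083 and Mir3069 were named after their values were seen. The members, lists and tests were chosen with earlier results of these data known. The alternatives tried were unstranded counts, TMM, DESeq2 size factors or all reads as totals, a thinned deeper library, count minimums of 1 and 100 or none, pseudocounts of 1 and 5 CPM, a total that omits the most abundant gene, and each replicate left out in turn.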

Additional observations from a re-analysis of the deposited data

How the results depend on the processing

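No paired analysis was possible because the series has 1 group, so no other group shares its replicate numbers. The direction of all 3 ratios held under each alternative that could test them. The log2 ratio ran from 0.17 to 0.29 for Mir26b over 10 alternatives, from 4.93 to 5.34 for Mir26a-2 over 9, and from 0.50 to 0.97 for Mir26a-1 over 9. The call was lost once, for Mir26a-1 when no gene was left out for low counts (adjusted p = 0.11 from Fisher's exact test at the same log2 ratio, 0.77), where 2202 genes entered the adjustment. At a minimum of 100 counts Mir26a-1 and Mir26a-2 could not be tested. The number of differing genes ran from 200 to 251 around 239, but the number tested changed as well. It was 239 of 420 in the main setting and 200 of 270 at a minimum of 100 counts. At a minimum of 1 it was 244 of 627, and without a minimum 223 of 2202. The share higher among differing genes was 47.7% in the main setting, 51.7% with TMM factors, 52.5% with DESeq2 size factors and 38.6% with all reads as the total. With all reads the levels per 1000000 reads were 2.99 for Mir26a-1, 110.2 for Mir26a-2, 3073 for Mir26b and 3186 for the family. They are lower because most reads were assigned to no miRNA gene, multimapping reads among them. Without the most abundant gene in the total, the level of Mir26b was 9325 CPM. Leaving out 1 replicate gave 5.76 to 10.2 CPM for Mir26a-1, 14.4 to 584.9 for Mir26a-2, 7475 to 8850 for Mir26b, 7495 to 9445 for the family, and 93.7% to 99.7% for the share of Mir26b; it leaves no ratio.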

Other observations

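Genes with 20 or more bases in common with another annotated hairpin were set apart as a class, to which both miR-26a genes belong. Of the 82 tested genes in it 57 differed between the libraries (69.5%), and of the 338 others 182 did (53.8%), a difference that was not tested. The median absolute log2 ratio was 0.31 in the class and 0.30 outside it, and 7 genes of the class (8.54%) and 34 of the others (10.1%) differed 2-fold or more. Within the class the log2 ratios ran from -1.62 to 5.30, the latter that of Mir26a-2, and outside it from -2.94 to 2.48.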
